A study of Mus musculus with 16 samples.

Results

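Alveolar macrophages kept in culture outside the lung (mexAM, 3 libraries) were set against cells freshly washed from the lungs (BALF, bronchoalveolar lavage, 3 libraries), which together are 6 of the 16 RNA libraries of the study. The libraries were chosen by their titles alone, as the mexAM and the BALF libraries of mice 1, 2 and 4. All mice were C57BL/6 wild type. The mexAM are murine alveolar macrophages grown ex vivo, and the BALF cells are the unpurified cells of the lavage. The labels used here do not state the medium, time in culture or passage of the mexAM, nor the age and sex of the mice. Since the mouse numbers name separate animals, each group held 3 biological replicates. The other 10 libraries, 3 of bone marrow derived macrophages (BMDM), 3 of peritoneal lavage cells (PLF) and 4 of alveolar macrophages cultured from pooled lavages, enter only where named.

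Alveolar macrophages live in the airspace, where they clear inhaled particles and take up and break down surfactant, a film of lipid and protein. Their identity depends on signals of the lung epithelium, among them GM-CSF and TGF-beta, which sustain the nuclear receptor PPAR-gamma and through it genes of lipid handling. They divide little in the undisturbed lung, and cells moved to a dish meet other nutrients, another oxygen tension and no epithelium.

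The RNA was read by QuantSeq, which sequences the 3′ end of each polyadenylated transcript, so that a count does not scale with transcript length. Levels are CPM (the counts of a gene per 1000000 counts of its library) scaled by TMM, a factor that evens out differences in library composition, and values of a group stand in the order of mice 1, 2 and 4. Changes are log2 fold changes, mexAM over BALF, ± the standard error of edgeR's quasi-likelihood fit, and a gene is said to rise or fall in mexAM where its Benjamini-Hochberg adjusted p was under 0.05. Gene counts were 1721856, 2055082 and 2427996 in mexAM and 1664635, 985582 and 1295736 in BALF, where 1 count is worth 0.412 to 0.581 CPM in mexAM and 0.601 to 1.01 CPM in BALF. Reads outside genes came to 13.3% to 15.5% in mexAM and 19.9% to 21.4% in BALF. Counts of the mitochondrial genome were 9.35% to 11.7% of gene counts in mexAM and 12.1% to 16.3% in BALF. Gm42418, a ribosomal RNA locus, took 5.11% to 5.45% in mexAM and 4.27% to 13.6% in BALF. The part of these library differences in the calls below was not tested beyond the alternative scalings. In bulk RNA, fewer cells of a type and less RNA of a gene per cell cannot be told apart.

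Defining markers of alveolar macrophages were present in both groups. All 16 listed had counts in mexAM and in BALF, with sums of 20580 to 23850 CPM in mexAM and 25950 to 29620 CPM in BALF, and 9 of them did not pass the test in either direction. Lpl, the lipoprotein lipase, stood at 7727, 8556 and 8458 CPM in mexAM and 9347, 9824 and 11320 CPM in BALF. Siglecf, a surface lectin used to define the cell type, had 552, 562 and 438 CPM in mexAM, against 360, 324 and 249 CPM in BALF, and rose by 0.73 ± 0.26 (adjusted p = 0.0426). Marco, Car4, Plet1 and Fabp1 also rose, while Chil3 and Itgax fell. Marco, a scavenger receptor, had 679, 1037 and 366 CPM in mexAM, against 322, 354 and 481 CPM in BALF, so its groups overlap (0.85 ± 0.30, adjusted p = 0.0417), and it was not called in 9 of 18 alternatives. Itgax, the integrin chain CD11c, was at 64.6, 66.1 and 38.2 CPM in mexAM, against 577, 538 and 526 CPM in BALF, a change of -3.29 ± 0.51 (adjusted p = 0.000365). Of the 5 rises, Fabp1 was called in all 18 alternatives, while the others rest on small margins. Only Fabp1 was left without BALF of mouse 1, without BALF of mouse 2 or without mexAM of mouse 2. With Fabp1 counted, 2 rises were left without BALF of mouse 4, without mexAM of mouse 1 or with mouse number as a replicate block. Among 6 markers of macrophages in general, Csf1r, the receptor of the growth factor CSF1, fell by 2.15 ± 0.30 on the log2 scale (adjusted p = 5.26e-05) and Fcgr1, an Fc receptor, by 3.12 ± 0.51 (adjusted p = 0.00021). Adgre1, Cd68, Lyz2 and Mertk were not called.

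A large part of the transcriptome differed between cultured and lavaged cells by more than the spread between mice, about equally in both directions. Genes that rose included the fatty acid hydroxylases Cyp4a12a and Cyp4a12b, the peroxisomal thiolase Acaa1b, the receptors Vipr2 and Ffar2, and 7 of 14 tested genes of peroxisome biogenesis. Genes that fell included Hmox1, which encodes haem oxygenase 1, the inducible heat shock proteins Hspa1a and Hspa1b, the MHC class II chains H2-Aa, H2-Ab1 and H2-Eb1, 13 of 37 proteasome subunits and 8 of 18 clock genes. Of 10011 genes tested, 3007 were called (30.0%), 1522 higher in mexAM (15.2%) and 1485 lower (14.8%). Counts of called genes in the lists below are to be read beside these shares. At least a 2-fold change was fitted for 1057 of the higher and 985 of the lower genes, and at least 16-fold for 90 and 117. The 3 mexAM and 3 BALF values did not overlap in 2898 of the called genes, and in 43.6% of all genes tested. Another 133 genes tested had no count in any of the 6 libraries and entered through BMDM or PLF. The split of calls depends on the scaling: with library totals in place of TMM, 2235 genes were called higher and 1082 lower, so that 67.4% of calls were higher against 50.6% with TMM, and the median change of all genes was 0.217 in place of 0.008.

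Calls were more frequent among abundant genes. Of the 86 genes over 1000 CPM, 46.5% were called, 14 higher and 26 lower in mexAM, against 24.8% of 2074 genes between 1 and 10 CPM. Genes called at least 2-fold higher made up 14.4%, 13.4% and 13.9% of the counts of the mexAM libraries and 3.54%, 3.48% and 3.38% of the BALF libraries. Genes called at least 2-fold lower made up 8.45%, 10.0% and 9.26% in mexAM and 22.2%, 24.6% and 22.2% in BALF, a description of the same contrast that chose them. At an equal depth of 985582 counts, 11846, 11833 and 11963 genes had at least 1 count in mexAM and 11997, 12201 and 12084 in BALF (exact two-sided permutation p = 0.1, the smallest that 3 against 3 allows). With at least 5 counts the order turned, with 8697, 8794 and 8879 genes in mexAM and 8372, 8440 and 8495 in BALF (exact p = 0.1). By annotation, 1493 of 9556 protein-coding genes rose and 1384 fell, while 26 of 343 long non-coding genes or genes yet to be classified rose and 82 fell, with a median change of -0.49. The share of reads outside genes was lower in mexAM as given above, and its part in the non-coding calls was not tested.

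**Figure D1:**
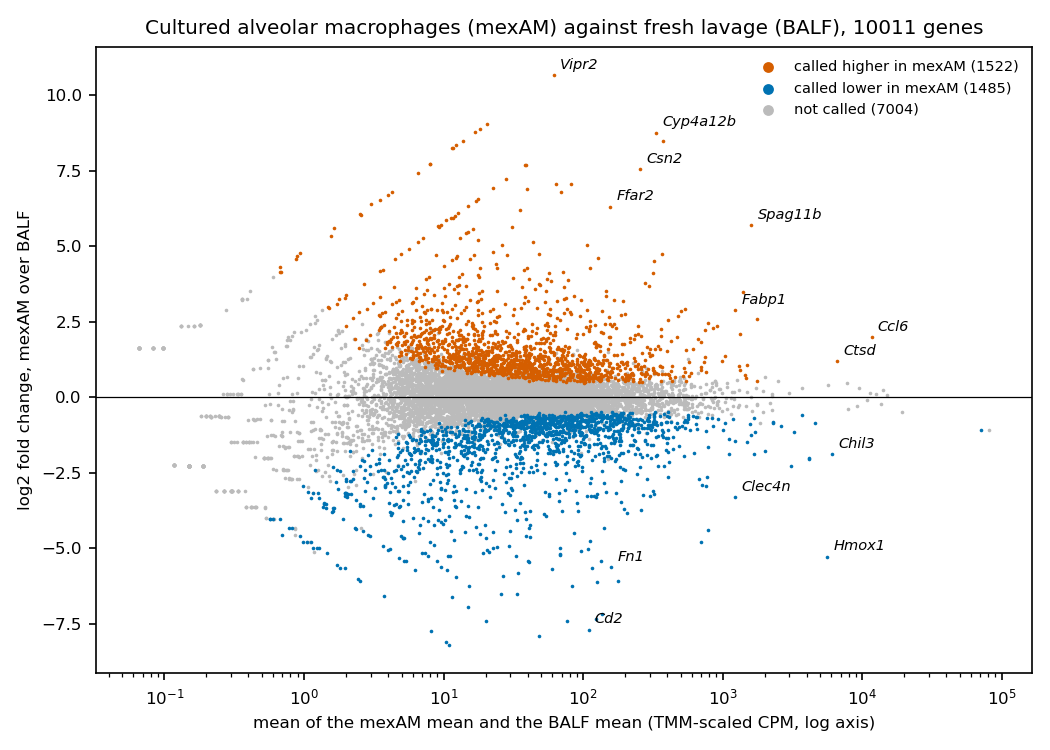
Fitted log2 fold change, mexAM over BALF (vertical axis), against mean level in TMM-scaled CPM (horizontal log axis) for the 10011 genes tested, with genes called higher in mexAM in orange (1522), lower in blue (1485) and the rest in grey. Called genes lie on both sides at every level, with Spag11b and Ccl6 among the abundant gained genes and Hmox1 and Chil3 among the abundant lost ones.

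The gained genes of largest fold change included fatty acid hydroxylases, receptors, a transporter and secreted proteins, most of them near 0 in lavage. Genes named for the largest folds or differences in level were chosen among called genes whose groups do not overlap. Their lack of overlap is therefore no further support. Vipr2, a receptor for vasoactive intestinal peptide, had 122, 192 and 56.7 CPM in mexAM and no count in any BALF library. Every mexAM library was thus above every BALF library, and mexAM was at least 135-fold higher against a floor of 3 counts over the BALF group (adjusted p = 2.42e-05). Cyp4a12b and Cyp4a12a, fatty acid hydroxylases of the endoplasmic reticulum, stood at 974, 519 and 502 CPM and at 1144, 518 and 572 CPM in mexAM, against at most 2.26 and 4.19 CPM in any BALF library. Their neighbour Cyp4a14 had 134, 119 and 158 CPM in mexAM, against 2.09, 0 and 0.895 CPM in BALF. The 3 genes changed by 8.76 ± 0.45, 8.48 ± 0.59 and 6.80 ± 0.42 (adjusted p at most 1.19e-07), without overlap of the groups. Cyp4a12a and Cyp4a12b share 34.2% of the 65-base windows in the last 500 bases of their transcripts, so the split of reads between them is uncertain.

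Ffar2, a receptor for short-chain fatty acids, was even across the cultures, with 306, 288.1 and 335 CPM in mexAM against 2.09, 4.52 and 5.37 CPM in BALF (6.31 ± 0.41, adjusted p = 1.37e-08). Spag11b, a defensin-like gene known from the epididymis, reached 3881, 3124 and 2413 CPM in mexAM, against 59.3, 71.2 and 51.0 CPM in BALF. It was the only gene among both the 15 largest folds and the 10 largest differences in level that rose (5.70 ± 0.36, adjusted p = 1.39e-08). Csn2, the milk protein beta-casein, rose by 7.57 ± 0.84 (adjusted p = 3.67e-05), and its mexAM libraries differed among themselves at 865, 520 and 133 CPM, against 4.89, 2.26 and 0 CPM in BALF. Several gained genes rest on 1 to 3 counts in all of BALF, for which the ratio with its exact 95% counting interval is given. Necab1, a calcium-binding protein of neurons, was 254 times higher in mexAM (45.4 to 10100), Slc32a1, the vesicular GABA transporter, 244 times (43.6 to 9670), and Bmp8a, a bone morphogenetic protein, 181 times (32.3 to 7180). Ephx2, the soluble epoxide hydrolase, was 146 times higher (49.7 to 708), with 115, 148 and 119 CPM in mexAM. Fabp7, a fatty acid binding protein, was 131 times higher (36.1 to 1090), but its mexAM values of 19.8, 191 and 24.02 CPM were carried by mouse 2. These intervals cover counting error only.

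By level rather than fold, the largest gain was Ccl6, a CC chemokine of rodents. It had 17620, 20660 and 17490 CPM in mexAM, against 5114, 4643 and 4390 CPM in BALF (1.98 ± 0.31, adjusted p = 0.000122), so all cultures lay far above all lavages. Dbi, the acyl-CoA binding protein, had 4156, 2320 and 2626 CPM in mexAM and 519, 530 and 469 CPM in BALF (2.58 ± 0.25). Acaa1b, the thiolase that ends a round of peroxisomal beta-oxidation, had 2831, 2501 and 2420 CPM in mexAM and 236, 306 and 152 CPM in BALF (3.48 ± 0.27), with 30.6% of its 3′ windows shared with its paralog Acaa1a. All 3 genes rose without overlap of the groups, which the rule that named them required. Fabp1, a lipid carrier best known from liver, rose by 2.88 ± 0.34 (adjusted p = 1.29e-05), with 2163, 1070 and 3265 CPM in mexAM against 342, 273 and 266 CPM in BALF. Adipor2, an adiponectin receptor, and Basp1, a membrane-bound protein first known from neurons, rose by 2.29 ± 0.23 and 2.45 ± 0.35. Ccnd2, the cyclin D2 of the G1 phase, stood at 2196, 2318 and 1985 CPM in mexAM, against 231, 280 and 1005 CPM in BALF. The lavage of mouse 4 was set apart for this gene, and the change of 2.10 ± 0.52 (adjusted p = 0.00866) was not called against that lavage alone. Igf1, an insulin-like growth factor that macrophages secrete, rose by 2.86 ± 0.32 (adjusted p = 7.18e-06), with 882, 726 and 1054 CPM in mexAM against 94.9, 84.7 and 187 CPM in BALF.

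**Figure D2:**
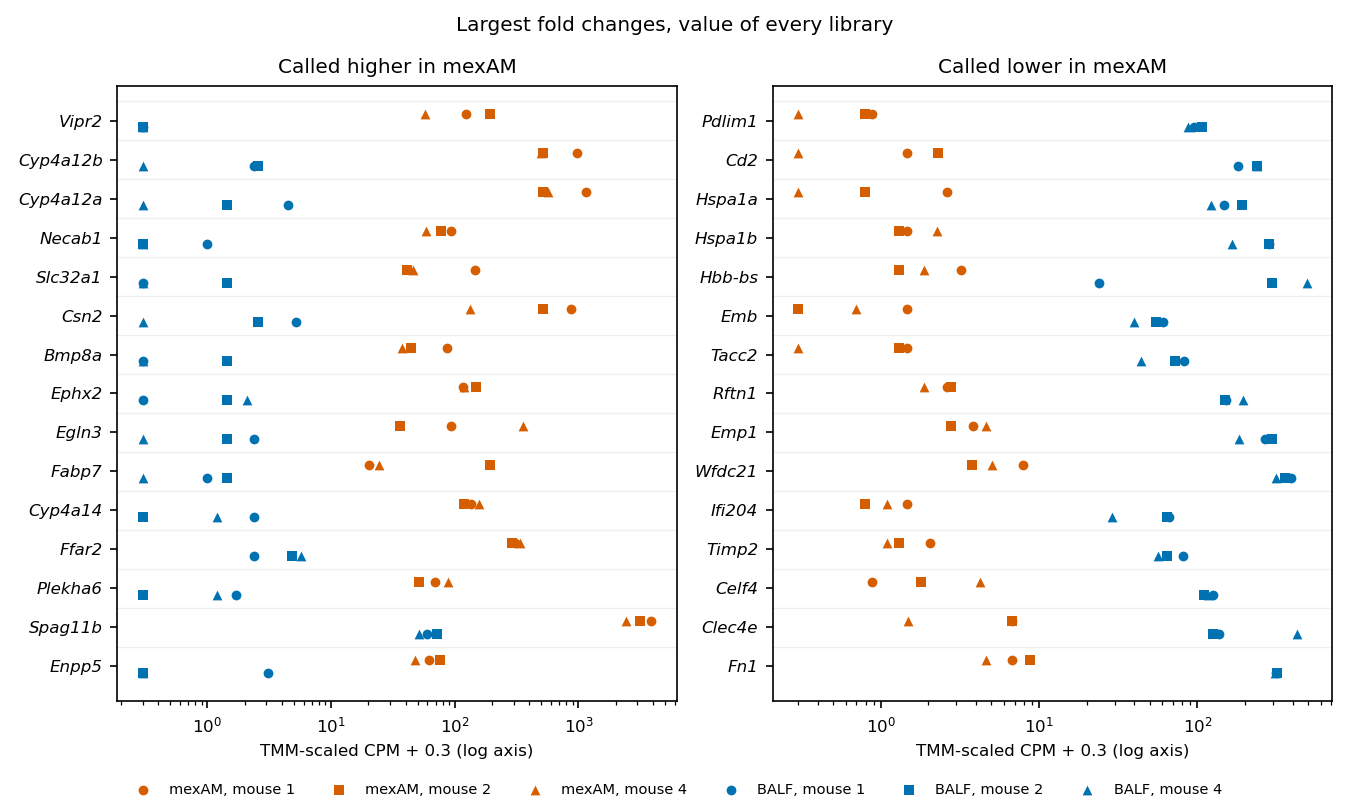
Level of the 15 genes with the largest fold change in each direction and at least 50 CPM in the higher group, as TMM-scaled CPM + 0.3 on a log axis, with a point for each library (mexAM orange and above, BALF blue and below; symbols give the mouse). The genes were chosen among those whose groups do not overlap, and Hbb-bs in the right panel spans 23.7 to 489 CPM among the BALF libraries.

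The promoters of 2 gained lipid genes are shown since each held a single match to a motif of the lipid regulators searched for. Fabp1 (chr6:71199629-71199928, plus strand, GRCm38.p6) held a match to DR1, a repeat that PPAR and related nuclear receptors bind, 67 bases before the start. DR1 was taken as 2 direct AGGTCA half-sites 1 base apart with at most 1 mismatch in all, and the Fabp1 match has 1 mismatch. Hmgcs1, which makes HMG-CoA for cholesterol synthesis, rose by 2.34 ± 0.22 (adjusted p = 5.08e-07; 1535, 1618 and 1387 CPM in mexAM, 267, 303 and 326 CPM in BALF) and held the sterol response motif TCACNCCAC 137 bases before the start (chr13:119690101-119690400, plus strand). Capitals mark the match in these RefSeq windows of 250 bases before and 50 after the start.
Fabp1: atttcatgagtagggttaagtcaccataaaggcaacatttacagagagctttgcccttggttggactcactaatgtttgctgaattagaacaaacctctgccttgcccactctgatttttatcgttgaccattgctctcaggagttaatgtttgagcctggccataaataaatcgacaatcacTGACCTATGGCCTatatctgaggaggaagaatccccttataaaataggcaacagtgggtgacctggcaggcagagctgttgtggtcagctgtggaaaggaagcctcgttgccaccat
Hmgcs1: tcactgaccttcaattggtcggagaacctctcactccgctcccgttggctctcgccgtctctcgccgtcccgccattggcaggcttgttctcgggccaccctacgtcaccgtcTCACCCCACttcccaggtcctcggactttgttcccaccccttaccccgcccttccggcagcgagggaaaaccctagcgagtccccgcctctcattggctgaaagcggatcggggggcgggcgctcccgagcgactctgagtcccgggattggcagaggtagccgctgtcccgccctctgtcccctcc
A match is a description of the letters, not a site. DR1 was held by 0.196% of promoters of genes called higher in mexAM and 0.351% of all tested, and the sterol motif by 0.913% and 1.14%, so neither motif was more frequent among the gained genes.

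In the lists of the tricarboxylic acid cycle, of ketone and branched-chain metabolism and of the mitochondrial ribosome more genes rose than fell, and most members were not called. Of 29 tested genes of the tricarboxylic acid cycle and pyruvate dehydrogenase, 9 rose and 0 fell, with a median change of 0.47, beside 15.2% higher, 14.8% lower and a median of 0.008 over all genes. Pdk1, a kinase that restrains pyruvate dehydrogenase, changed most (190, 105 and 231 CPM in mexAM, 20.2, 21.5 and 15.2 CPM in BALF; 3.21 ± 0.30, adjusted p = 6.03e-07). Acly, which turns citrate into cytosolic acetyl-CoA, had 219, 189 and 394 CPM in mexAM and 53.0, 53.1 and 51.0 CPM in BALF (2.35 ± 0.25). Mpc2, a subunit of the mitochondrial pyruvate carrier, had 667, 849 and 759 CPM in mexAM and 253, 144 and 173 CPM in BALF (1.99 ± 0.22). In all 3 genes each culture was above each lavage, though they act in different directions on pyruvate and citrate. Of 25 genes of ketone, branched-chain amino acid and propionate metabolism, 7 rose and 0 fell (median 0.71), led by Mmab of the cobalamin pathway (2.28 ± 0.58) and Bdh1, the ketone body dehydrogenase (1.89 ± 0.42). Of 74 mitochondrial ribosome genes, 14 rose and 1 fell (median 0.42). The changes were small, at most 1.48 for Mrps21, and the 14 became 8 without BALF of mouse 2 and 9 without BALF of mouse 1. With library totals the counts of higher genes in these 3 lists were 16, 13 and 25.

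Peroxisome biogenesis genes rose in 7 of 14 cases and fell in 1 (median 0.62), and 4 rose without BALF of mouse 1. Pex11a, which elongates and divides peroxisomes, had 708, 785 and 588 CPM in mexAM, against 104, 111 and 141 CPM in BALF (2.55 ± 0.19, adjusted p = 6.05e-08). Pex16, which places membrane proteins in new peroxisomes, had 121, 74.5 and 74.0 CPM in mexAM, against 18.8, 28.2 and 31.3 CPM in BALF (1.79 ± 0.27). Pex13, of the import pore, went the other way by -1.41 ± 0.29 (adjusted p = 0.0018). The summed list was 973 to 1202 CPM in mexAM, most of it Pex11a, and 380 to 384 CPM in BALF. The cytochrome P450 list gained 6 and lost 3 of 13 tested members (median 0.53). Beside the Cyp4a genes, Cyp4f16 rose by 1.61 ± 0.29, and Cyp11a1, which starts steroid synthesis, had 1.75, 2.48 and 13.8 CPM in mexAM and no count in BALF, at least 7.85-fold higher. Cyp4f18, a leukotriene B4 hydroxylase, was nearly lost, with 5.82, 0 and 5.51 CPM in mexAM against 87.2, 82.5 and 63.6 CPM in BALF (-4.33 ± 0.44, adjusted p = 2.25e-06).

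Synthesis of phospholipids and triacylglycerol was among the most changed lists, with 15 genes higher and 9 lower of 43 tested (median 0.28), with 5 lower without mexAM of mouse 4 and 4 lower with library totals. Acsl3, which activates fatty acids at lipid droplets, had 212, 217 and 210 CPM in mexAM, against 13.3, 6.78 and 11.6 CPM in BALF (4.28 ± 0.25, adjusted p = 4.78e-09). Dgat1, which makes triacylglycerol, had 153, 133 and 141 CPM in mexAM, against 20.2, 24.9 and 17.9 CPM in BALF (2.77 ± 0.25, adjusted p = 3.85e-07). Both genes were nearly level across the 3 cultures. Pla2g7, the secreted phospholipase that degrades platelet-activating factor, fell to 1.17, 0.497 and 1.57 CPM in mexAM, against 41.9, 53.1 and 25.1 CPM in BALF (-5.06 ± 0.40, adjusted p = 9.25e-08). Sphingolipid genes rose in 4 and fell in 7 of 39 cases, with Degs1, the ceramide desaturase, at 91.4, 93.9 and 113 CPM in mexAM and 322, 410 and 372 CPM in BALF (-1.89 ± 0.18).

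Genes of amino acid handling moved in both directions. Psat1 and Phgdh, which make serine, rose by 2.56 ± 0.44 and 2.51 ± 0.42, and 4 of 20 cytosolic aminoacyl-tRNA synthetases rose while 0 fell (Mars 1.73 ± 0.28, Farsb, Iars and Qars). Slc7a11, the cystine carrier of the glutathione supply, fell but was still expressed: it had 61.1, 103 and 49.6 CPM in mexAM, against 1481, 1937 and 1064 CPM in BALF (-4.39 ± 0.29, adjusted p = 1.39e-08). Its partner chain Slc3a2 had 306, 245 and 253 CPM in mexAM and 1165, 1175 and 577 CPM in BALF (-1.86 ± 0.26). Both chains were below every lavage in every culture. In the list of ATF4 and amino acid response genes, 4 of 17 rose and 6 fell (median -0.04). The 6 were Slc7a11, the stress factors Atf3, Ddit3, Atf5 and Cebpg, and Ppp1r15a, which restarts translation after stress. Among the 4 was Gpt2, with 11.65, 7.45 and 29.93 CPM in mexAM, against 4.19, 3.39 and 1.79 CPM in BALF (2.37 ± 0.68, adjusted p = 0.0163). Gpt2 was not called without BALF of mouse 4 or without mexAM of mouse 4. Arg2, the mitochondrial arginase, had 1 count in mexAM and 43 in BALF and was 78.5 times lower in mexAM (exact 95% interval 13.4 to 3170).

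**Figure D3:**
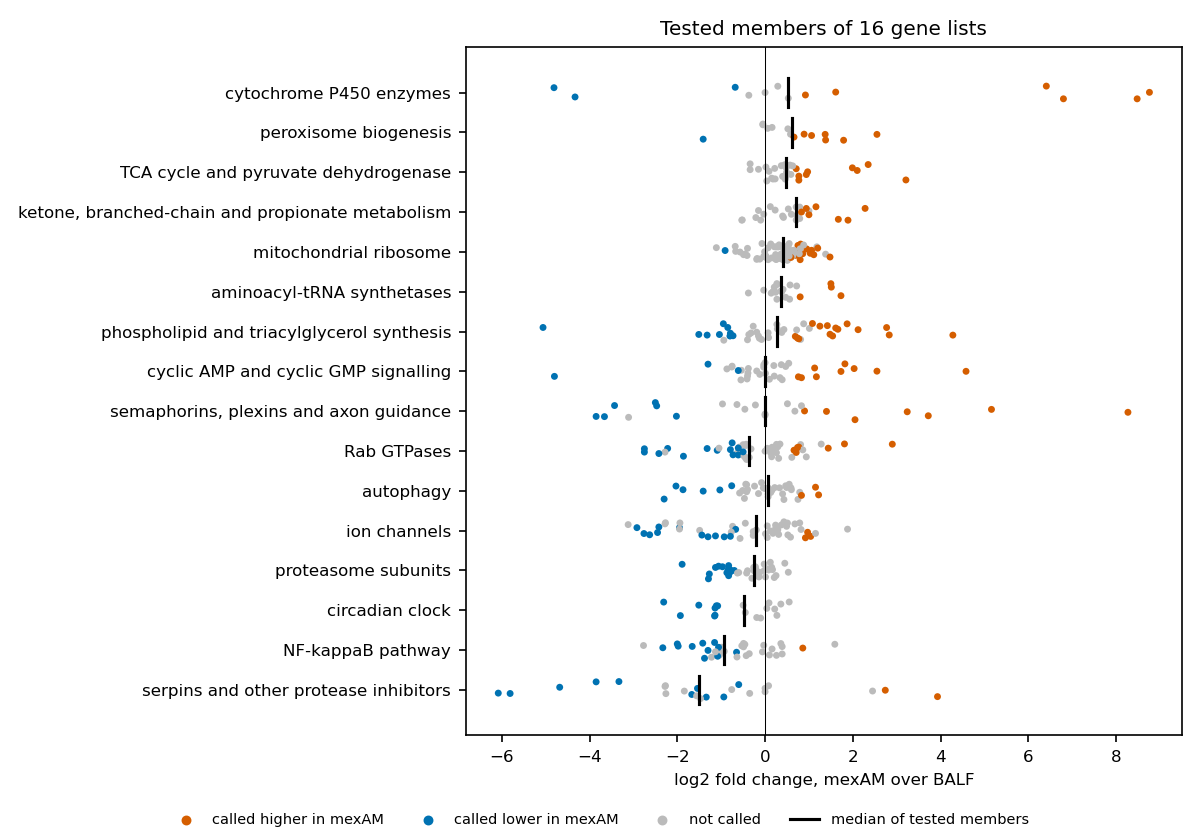
Fitted log2 fold change, mexAM over BALF, of each tested member of 16 gene lists; orange points were called higher in mexAM, blue points lower, grey points were not called, and the black bar is the median of tested members. Bars of the metabolic lists at the top lie right of 0 (0.47 for the tricarboxylic acid cycle), and those of the proteasome, clock, NF-kappaB and protease inhibitor lists at the bottom lie left of 0 (-1.50 for the protease inhibitors).

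The lost genes were led by stress, adhesion and surface proteins. Hmox1, haem oxygenase 1, fell most in level: 264, 267 and 308 CPM in mexAM, against 12330, 12940 and 7406 CPM in BALF (-5.28 ± 0.39, adjusted p = 7.26e-08). In lavage it was among the most abundant transcripts, and each culture stood far below each lavage. Prdx1, a peroxide-reducing enzyme, had 2007, 1768 and 1203 CPM in mexAM, against 8366, 6969 and 4566 CPM in BALF (-2.00 ± 0.37, adjusted p = 0.00079). Sqstm1, an autophagy receptor, had 843, 806 and 511 CPM in mexAM, against 2359, 3252 and 2260 CPM in BALF (-1.87 ± 0.24). Neither Prdx1 nor Sqstm1 overlapped between the groups, which the rule that named them required. Chil3, the chitinase-like protein Ym1 had 2306, 2108 and 3373 CPM in mexAM and 12170, 9069 and 7601 CPM in BALF (-1.89 ± 0.29). Ctss, the protease cathepsin S, fell by 2.06 ± 0.21 and Ctsd, the protease cathepsin D, rose by 1.20 ± 0.30 on the log2 scale, but Ctsd was not called against any BALF library alone. Malat1, an abundant nuclear RNA, fell by 0.85 ± 0.30 (adjusted p = 0.0426) and was not called in any fit that left out a library.

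The inducible heat shock proteins of the HSP70 family were close to 0 in culture. Hspa1a had 2.33, 0.497 and 0 CPM in mexAM, against 146, 191 and 121 CPM in BALF (-7.43 ± 0.57, adjusted p = 1.82e-07). Hspa1b had 1.17, 0.994 and 1.97 CPM in mexAM, against 285, 282 and 165 CPM in BALF (-7.34 ± 0.70, adjusted p = 5.8e-06). The lavages were high and the cultures near 0 for both copies. The 2 genes share none of the 65-base windows in their last 500 bases, so their 3′ counts are distinct. The freshly lavaged and the cultured cells also differ in handling before lysis, which the labels do not describe, and the part of handling cannot be told apart from that of culture. Their promoters are shown because the copies are nearly the same there: 4 of 300 bases differ. Hspa1a lies at chr17:34972107-34972406 and Hspa1b at chr17:34959189-34959488 (minus strand, GRCm38.p6). Capitals mark the match to GAANNTTC, a unit of the heat shock element, 104 bases before the start in both.
Hspa1a: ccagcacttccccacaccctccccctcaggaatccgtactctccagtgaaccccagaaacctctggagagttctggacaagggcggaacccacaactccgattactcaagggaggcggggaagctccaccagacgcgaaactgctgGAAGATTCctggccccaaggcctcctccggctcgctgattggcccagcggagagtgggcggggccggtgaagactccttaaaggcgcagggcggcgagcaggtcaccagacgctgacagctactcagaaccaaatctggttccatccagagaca
Hspa1b: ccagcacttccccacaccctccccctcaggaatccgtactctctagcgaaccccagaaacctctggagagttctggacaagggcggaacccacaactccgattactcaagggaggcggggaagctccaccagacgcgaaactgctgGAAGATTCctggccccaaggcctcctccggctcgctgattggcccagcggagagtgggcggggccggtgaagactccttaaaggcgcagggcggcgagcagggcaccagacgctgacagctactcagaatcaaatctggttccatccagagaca
This short motif was held by 5.81% of promoters of genes lower in mexAM, 5.15% of those higher and 5.70% of all tested.

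Adhesion and cytoskeletal genes followed. Cd2, an adhesion receptor best known from T cells, had 1.17, 1.99 and 0 CPM in mexAM, against 180, 236 and 236 CPM in BALF (-7.70 ± 0.39, adjusted p = 1.28e-09). The T cell marker Cd3e had 0 counts in mexAM and 1 in BALF. Pdlim1, an adaptor on actin fibres, had 2 counts in mexAM and 327 in BALF and was 298 times lower in mexAM (exact 95% interval 82.0 to 2470). Emb, a partner of lactate carriers, was 108 times lower in mexAM (36.5 to 530). Rftn1, a lipid raft protein, fell by 6.26 ± 0.27 on the log2 scale (adjusted p = 2.74e-10), to 2.33, 2.48 and 1.58 CPM in mexAM against 151, 149 and 195 CPM in BALF. Fn1, the matrix protein fibronectin, had 6.41, 8.45 and 4.33 CPM in mexAM, against 312, 320 and 307 CPM in BALF (-5.62 ± 0.36, adjusted p = 1.03e-08). The lavages were almost level for Fn1, and the cultures lay below them all. Celf4, an RNA-binding protein known from neurons, had 0.582, 1.49 and 3.94 CPM in mexAM, against 125, 110 and 116 CPM in BALF, while BMDM and PLF averaged 2.04 and 2.41 CPM. Vim, the intermediate filament vimentin, fell by 1.79 ± 0.33 and Lgals3, galectin-3, by 0.97 ± 0.26 on the log2 scale, though Lgals3 was not called against any BALF library alone.

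Emp1, a membrane protein of epithelia and leukocytes, and Prdx1 are shown for the AP-1 motif, since each held 2 matches. Emp1 had 3.49, 2.48 and 4.33 CPM in mexAM, against 266, 297 and 184 CPM in BALF (-6.12 ± 0.40, adjusted p = 2.5e-08). Its window with the matches (chr6:135362681-135362980, plus strand) is 1 of 2 that RefSeq gives, and the other held none. The Prdx1 window is chr4:116685349-116685648 on the plus strand. Capitals mark TGANTCA.
Emp1: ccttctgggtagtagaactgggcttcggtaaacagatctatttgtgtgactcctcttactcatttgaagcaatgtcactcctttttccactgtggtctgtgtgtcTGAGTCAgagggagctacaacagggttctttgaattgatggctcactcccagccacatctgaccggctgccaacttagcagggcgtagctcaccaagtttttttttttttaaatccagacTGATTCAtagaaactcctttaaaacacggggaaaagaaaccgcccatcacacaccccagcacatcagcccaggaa
Prdx1: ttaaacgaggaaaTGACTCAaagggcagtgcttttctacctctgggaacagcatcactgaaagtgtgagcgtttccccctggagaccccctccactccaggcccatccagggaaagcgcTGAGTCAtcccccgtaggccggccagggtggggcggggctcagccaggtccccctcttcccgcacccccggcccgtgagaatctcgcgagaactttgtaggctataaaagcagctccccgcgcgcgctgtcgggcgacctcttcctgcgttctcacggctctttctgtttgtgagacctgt
AP-1 is a family of dimers of FOS and JUN proteins. Its motif was held by 7.52% of promoters of genes lower in mexAM, 5.54% of those higher and 5.05% of all tested, and by 9.35% of those at least 2-fold lower. The antioxidant response motif TGACNNNGC, which NRF2 binds, was held by 17.3%, 13.9% and 14.7% of the promoters of lower, higher and all tested genes. Going the other way, the NF-Y motif CCAAT was held by 32.9%, 40.5% and 37.2%, and the E2F motifs TTTGGCGC and TTTCCCGC by 2.12%, 3.65% and 3.02%. Both strands were read, motifs may overlap, and these shares are descriptions of 1534 windows of higher, 1463 of lower and 9974 of tested genes (1208, 1114 and 7794 genes had a window), whose mean GC content was 59.9%, 61.6% and 60.7%.

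C-type lectins that sense fungi and dead cells fell together with their neighbours on chromosome 6. The 6 genes Clec4a3, Clec4b1, Clec4a2, Clec4n, Clec4d and Clec4e (chromosome 6, 122952515 to 123289870) changed by -5.67 to -2.34. Clec4n, the receptor Dectin-2, had 338, 254 and 85.1 CPM in mexAM, against 2117, 2712 and 1821 CPM in BALF (-3.30 ± 0.44, adjusted p = 8.33e-05). Clec4e, the receptor Mincle, had 6.41, 6.46 and 1.18 CPM in mexAM, against 138, 124 and 424 CPM in BALF (-5.67 ± 0.79, adjusted p = 0.000212). The lavage of mouse 4 was highest for Clec4e, but all lavages were above all cultures in both genes. Clec7a, Dectin-1, which the naming rule leaves out by its annotation class and was chosen after its values were seen, had 1119, 1152 and 877 CPM in mexAM and 5979, 5801 and 3674 CPM in BALF (-2.30 ± 0.26). In all, 44 runs of at least 3 neighbouring tested genes changed at least 2-fold in 1 direction, among them the Cyp4a genes above. The MHC class II genes H2-Ab1, H2-Aa and H2-Eb1 (chromosome 17, 34257689 to 34316674) changed by -5.02 ± 0.52, -5.08 ± 0.44 and -4.42 ± 0.58. H2-Aa had 5.24, 5.96 and 5.12 CPM in mexAM, against 175, 183 and 201 CPM in BALF. B2m, the light chain of MHC class I, fell by 1.14 ± 0.22 on the log2 scale. Ifi207, Ifi204 and Mndal, interferon-inducible genes of chromosome 1 (173723427 to 173942491), changed by -5.92 to -2.24, and Ifi204 had at most 1.17 CPM in mexAM against 28.7 to 65.6 CPM in BALF.

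Of 24 genes tested in the list of protease inhibitors, 10 fell and 2 rose, with a median change of -1.50. Wfdc21, a whey acidic protein domain gene, had 7.57, 3.48 and 4.73 CPM in mexAM, against 388, 359 and 312 CPM in BALF (-6.08 ± 0.46). Timp2, which inhibits metalloproteinases, had 1.75, 0.994 and 0.788 CPM in mexAM, against 80.3, 64.4 and 56.4 CPM in BALF (-5.81 ± 0.31). Slpi, which inhibits neutrophil elastase, had 40.2, 12.9 and 27.2 CPM in mexAM, against 384, 332 and 432 CPM in BALF (-3.85 ± 0.32). Cultures and lavages did not overlap in any of them. Tfpi, Cst3, Cstb and Wfdc10 also fell, and so did Anxa1, Bst1 and Bst2, which the list's pattern took in although they are an annexin, an ADP-ribosyl cyclase and a tethering factor. Without these 3, left out after the data were seen, 7 of 21 fell and 2 rose, with a median of -1.54. The 2 that rose were Serpinb1a, an inhibitor of neutrophil proteases (392, 346 and 304 CPM in mexAM, 51.0, 45.2 and 59.1 CPM in BALF; 2.74 ± 0.29), and Serpinb6b (3.93 ± 0.69).

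The proteasome lost 13 and gained 0 of 37 tested subunits (median -0.26). The changes were moderate: Psma5 of the core ring had 22.7, 58.1 and 35.4 CPM in mexAM, against 174, 173 and 85.9 CPM in BALF (-1.89 ± 0.30, adjusted p = 0.00019), and the other 12 lay between -1.29 and -0.70. They included Psmb8, a subunit of the immunoproteasome (-1.13 ± 0.27). Of 38 autophagy genes, 6 fell (15.8%) and 3 rose (7.89%), beside 14.8% and 15.2% of all genes tested. With library totals 5 fell and 6 rose. The transcription factors Mitf and Tfe3, which drive lysosome genes, fell by 2.30 ± 0.20 and 1.41 ± 0.20 on the log2 scale. Gabarapl1, a coat protein of autophagosomes, had 120, 125 and 117 CPM in mexAM, against 613, 609 and 250 CPM in BALF (-2.03 ± 0.33). Clock genes fell in 8 of 18 cases and rose in 0 (median -0.48). Nr1d1, a repressor of the clock, had 3.49, 3.97 and 5.91 CPM in mexAM, against 20.2, 31.6 and 17.9 CPM in BALF (-2.31 ± 0.36, adjusted p = 0.000143). Csnk1e, a clock kinase, fell by 1.93 ± 0.31 and Bhlhe40 by 1.51 ± 0.35 on the log2 scale, and Clock, Arntl, Cry2 and Nr1d2 also fell. The labels used here do not state the hour of lavage or of harvest, so culture and time of day cannot be told apart.

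Genes of the NF-kappaB pathway fell in 13 of 37 cases and rose in 1 (median -0.93), a count that rests on BALF of mouse 4. Without that lavage 7 fell, and against the lavage of mouse 1, 2 or 4 alone the counts were 3, 3 and 14. Nfkbia, the inhibitor that NF-kappaB induces, had 401, 514 and 225 CPM in mexAM, against 687, 877 and 2032 CPM in BALF (-1.66 ± 0.46, adjusted p = 0.0156), and was not called without that lavage, without mexAM of mouse 1 or without mexAM of mouse 4. Traf5, an adaptor of TNF receptors, was steadier, with 5.82, 7.45 and 8.66 CPM in mexAM against 25.1, 28.2 and 36.7 CPM in BALF (-2.00 ± 0.32). The neighbouring chemokine genes Pf4, Cxcl3, Cxcl1 and Cxcl2 and the growth factor Ereg (chromosome 5, 90772435 to 91093646) changed by -4.90 to -1.99. Cxcl2, which draws neutrophils, had 55.3, 133 and 132 CPM in mexAM, against 214, 262 and 800 CPM in BALF, so that the lavage of mouse 4 was again the highest.

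Of 84 transcription factors of families that shape macrophages, 12 rose and 19 fell (median -0.07), a split that turned to 19 higher and 14 lower with library totals. Irf5 and Irf8, which drive inflammatory and lineage genes of macrophages, were among the most reduced. Irf8 had 13.4, 5.46 and 9.84 CPM in mexAM, against 124, 141 and 126 CPM in BALF (-3.77 ± 0.31, adjusted p = 1.6e-07), and Irf5 changed by -5.27 ± 0.43. Zeb2, a repressor that keeps macrophage identity, had 137, 145 and 171 CPM in mexAM, against 630, 692 and 707 CPM in BALF (-2.16 ± 0.20). Sox7 had 15.7, 47.2 and 19.7 CPM in mexAM and no count in BALF, at least 31.4-fold higher. Sox4, a relative, rose by 3.94 ± 0.36, Epas1, the oxygen-regulated HIF-2 alpha, by 3.18 ± 0.28, and Klf4 by 2.02 ± 0.34, with 761, 412 and 560 CPM in mexAM against 129, 142 and 156 CPM in BALF. Among 21 nuclear receptors, 2 rose and 4 fell. Thrb, the thyroid hormone receptor beta, was 49.9 times higher in mexAM by counts (exact 95% interval 13.6 to 415). Nr4a1 and Ppard fell by 2.80 ± 0.56 and 1.79 ± 0.34 on the log2 scale, and Nr3c1, the glucocorticoid receptor, by 1.11 ± 0.26. Pparg, the receptor named for alveolar macrophage identity, was not called, with 17.5, 135 and 63.8 CPM in mexAM and 117, 65.5 and 86.8 CPM in BALF. The groups overlapped, and the cultures differed more among themselves than the lavages. Dnmt3l, a cofactor of DNA methyltransferases, led the 18 losses among 98 chromatin genes and was 32.2 times lower in mexAM by counts (10.5 to 161). The 11 gains of that list became 4 without BALF of mouse 2 or mexAM of mouse 1, and 6 without BALF of mouse 4 or mexAM of mouse 4; library totals gave 20 gains and 12 losses.

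Receptors changed in both directions. Of 72 G protein coupled receptors outside the chemokine family, 11 rose (15.3%) and 12 fell (16.7%). Of 167 solute carriers, 31 rose (18.6%) and 25 fell (15%). Over all genes tested 15.2% rose and 14.8% fell, so both lists were near those shares. Gpr34, a lysophosphatidylserine receptor, had 9.90, 27.8 and 30.7 CPM in mexAM and no count in BALF, at least 27.6-fold higher. C5ar1, the receptor of complement C5a, had 330, 469 and 402 CPM in mexAM, against 101, 85.8 and 92.2 CPM in BALF (2.10 ± 0.28). Adrb1, a beta-adrenergic receptor, had 0.582, 1.99 and 2.36 CPM in mexAM, against 90.7, 83.6 and 61.8 CPM in BALF (-5.44 ± 0.41, adjusted p = 5.75e-08). None of these 3 overlapped between the groups. Slc40a1, the iron exporter ferroportin, had 12.8, 16.4 and 5.91 CPM in mexAM, against 140, 106 and 124 CPM in BALF (-3.43 ± 0.44). Semaphorin and plexin genes split 7 higher to 6 lower of 23. Sema3e had 200, 415 and 282 CPM in mexAM, against 34.2, 35.0 and 26.0 CPM in BALF (3.24 ± 0.28), and Nrp1, a semaphorin co-receptor, rose by 2.05 ± 0.26. Plxnd1, a plexin of the same list, fell, with 0, 2.98 and 3.15 CPM in mexAM, against 12.56, 14.69 and 46.55 CPM in BALF. Efna5, a guidance ligand, had no count in BALF and was at least 26.5-fold higher in mexAM. Plxna1 had 25.0, 22.9 and 20.5 CPM in mexAM, against 140, 102 and 144 CPM in BALF (-2.50 ± 0.21, adjusted p = 1.69e-07). Ion channels fell in 12 of 49 cases and rose in 3 (median -0.20), and 5 rose without BALF of mouse 4 and 6 with library totals. Clic4, a chloride channel protein, had 214, 286 and 145 CPM in mexAM, against 1340, 1473 and 1190 CPM in BALF (-2.63 ± 0.24, adjusted p = 3.68e-07). Piezo1, the mechanosensitive channel, had 7.57, 12.9 and 6.30 CPM in mexAM, against 61.4, 24.9 and 114 CPM in BALF (-2.92 ± 0.47). The neighbours Lrrc8b, Lrrc8c and Lrrc8d, subunits of the volume-regulated anion channel, changed by -2.76 to -1.13, while the obligate subunit Lrrc8a rose by 0.97 ± 0.23. Among Rab GTPases, which route vesicles, 13 fell and 7 rose of 49, against 7 and 9 with library totals. The losses became 8 without BALF of mouse 1, and the gains 3 or 4 without BALF of mouse 1, BALF of mouse 2 or mexAM of mouse 4. Rab31 had 14.6, 23.4 and 22.8 CPM in mexAM, against 138, 151 and 125 CPM in BALF (-2.75 ± 0.23), and Rab7b had 72.2, 51.2 and 63.8 CPM in mexAM, against 308, 381 and 312 CPM in BALF (-2.42 ± 0.28).

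The lavages of mice 2 and 4 carried red cell and airway RNA that the lavage of mouse 1 carried less of, and 4 of the 3007 calls did not hold their direction against the lavage of mouse 1. Hbb-bs, a beta-globin, had 2.91, 0.994 and 1.58 CPM in mexAM, against 23.7, 297 and 489 CPM in BALF. Hba-a1, an alpha-globin, was at 0 in mexAM and at 6.28, 74.6 and 91.3 CPM in BALF. Scgb1a1, the club cell secretory protein, was at 0 in mexAM and at 0.698, 14.7 and 26.9 CPM in BALF. The lavage of mouse 1 was the lowest for all 3 genes, and still above all cultures. Hba-a1 and Scgb1a1 did not pass the low-count filter and were not tested, and 55.2% of the 3′ windows of Hbb-bs are shared with Hbb-bt. Bpifa1, another airway secretory gene, had 1 count in mexAM, against 8.38, 49.7 and 31.3 CPM in BALF. Of the 2 red cell markers tested, Hbb-bs fell and Bpgm rose. Bpgm had 13.4, 15.4 and 13.4 CPM in mexAM, against 4.89, 6.78 and 5.37 CPM in BALF. The summed red cell markers came to 15.8 to 18.1 CPM in mexAM, most of it Bpgm, and to 48.2, 512 and 739 CPM in BALF. The summed airway markers came to 5.46 to 11.4 CPM in mexAM and to 97.0, 189 and 198 CPM in BALF. Epcam, Napsa and Tppp3 did not follow that order. Epcam, an epithelial adhesion molecule, had 1 count in mexAM, against 41.2, 44.1 and 35.8 CPM in BALF. Napsa, an aspartic protease best known from alveolar epithelium, was at most 1.75 CPM in mexAM, against 37.0, 32.8 and 28.7 CPM in BALF, and Tppp3, a tubulin-binding protein of ciliated cells, at most 2.33 CPM in mexAM, against 76.8, 62.1 and 103 CPM in BALF. The lavage of mouse 1 was the lowest for none of these 3 genes. Cdh1, of the same list of alveolar epithelial markers as Epcam and Napsa, went the other way. It had 112, 49.2 and 59.5 CPM in mexAM, against 23.7, 39.5 and 40.3 CPM in BALF, and was not called in 9 of 18 alternatives. Napsa is not particular to epithelium in these libraries, since it averaged 64.4 CPM in BMDM and 118 CPM in PLF.

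The lavage of mouse 1 was 1 of the 3 lavages that made the calls, so agreement with it was partly built in and is no independent check. All 1522 higher genes were also higher against the lavage of mouse 1, and in 1509 of them that lavage lay below all 3 cultures (mean ratio with 0.5 CPM added). Of the 1485 lower genes, 1481 were lower against it, and in 1473 that lavage lay above all 3 cultures. The 4 exceptions, named after their values were seen, were Cd80, a costimulatory molecule with at most 0.582 CPM in mexAM, against 0, 3.39 and 8.06 CPM in BALF, and Fcrla, H2-T24 and Oasl1, which were at 0 in mexAM and in that lavage. Under 50% of the log2 change held against mouse 1 in 78 higher and 97 lower genes. Hbb-bs changed by -3.38 against mouse 1 and by -7.40 against the mean of mice 2 and 4. Pid1, an adaptor of lipoprotein receptors, had 12.8, 6.46 and 5.12 CPM in mexAM, against 16.8, 27.1 and 108 CPM in BALF. Acod1, which makes itaconate in stimulated macrophages, had 6.41, 7.95 and 3.15 CPM in mexAM, against 8.38, 14.7 and 42.1 CPM in BALF. The lavage of mouse 4 was the highest in both. A fit with the lavage of mouse 1 as the only BALF library called 582 genes higher and 736 lower, 539 and 700 of them shared with the calls above and none reversed. Fits with the lavage of mouse 2 or of mouse 4 alone, added after the data were seen, called 636 and 758, or 504 and 706. Counts were therefore lower with any 1 lavage, and the lavage of mouse 1 gave more calls than that of mouse 4. Leaving the red cell and airway genes out before scaling gave 1518 higher and 1482 lower genes. By list, over the members tested above, mouse 1 alone gave 4 higher and 0 lower genes for the tricarboxylic acid cycle, 3 and 1 for peroxisome biogenesis, 5 and 1 for cytochrome P450, 1 and 0 for ketone and branched-chain metabolism, 1 and 0 for the mitochondrial ribosome, 7 and 3 for phospholipid synthesis, 0 and 8 for the proteasome, 0 and 5 for the clock, and 2 and 7 for protease inhibitors. Ion channels gave 1 and 6, Rab GTPases 3 and 5, and autophagy 1 and 6.

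**Figure D4:**
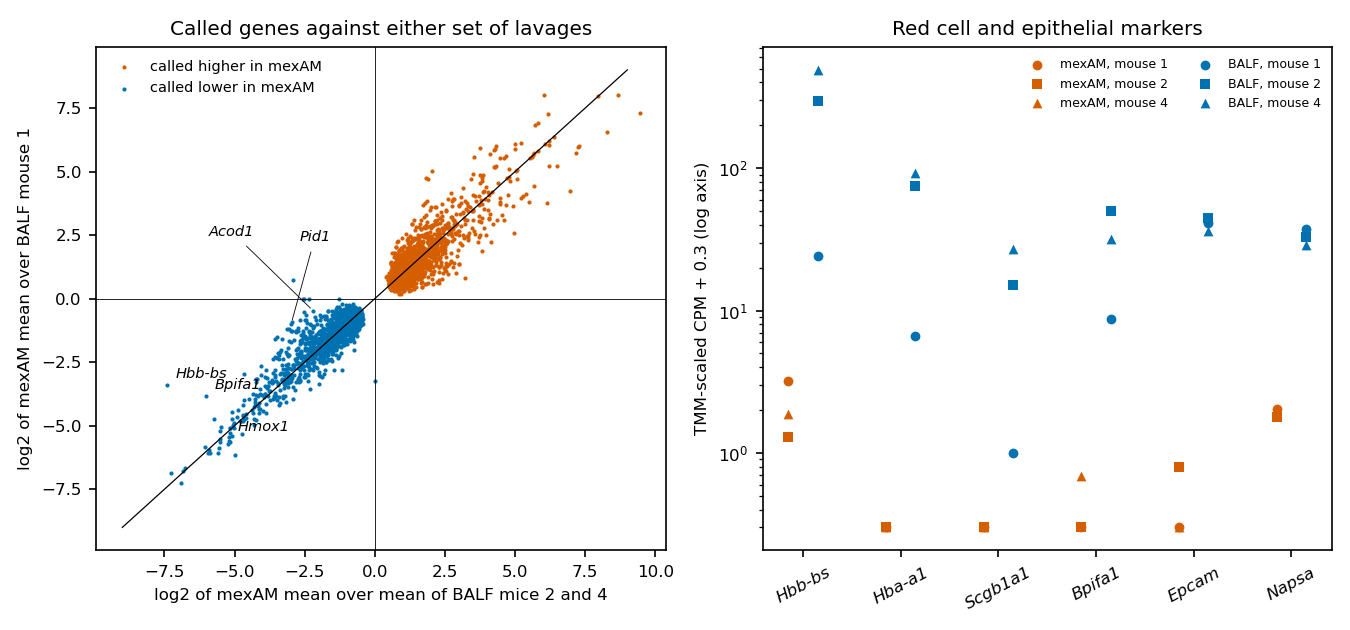
Left, log2 ratio of the mexAM mean over BALF of mouse 1 (vertical axis) against the ratio over the mean of BALF of mice 2 and 4 (horizontal axis), with 0.5 CPM added, for the 3007 called genes, with the line of equality. Right, levels of red cell and epithelial markers as TMM-scaled CPM + 0.3 on a log axis, with a point for each library (mexAM orange, BALF blue; symbols give the mouse). Nearly all called genes lie in the same quadrant for both axes, and all 3 lavages took part in the calls. Hbb-bs is far above the line at -3.38 against -7.40. The lavage of mouse 1 is low for Hbb-bs, Hba-a1 and Scgb1a1 but not for Epcam or Napsa.

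Markers of other cells were low in both groups apart from a few genes. Of 12 tested markers of T, NK and innate lymphoid cells, 1 fell (Il7r) and 0 rose, with a summed level of 115 to 156 CPM in mexAM and 128 to 227 CPM in BALF that was mostly Rora, while Cd3d and Trbc1 had no count in either group. Of 13 B cell markers 0 rose and 0 fell, and the sums were 57.5 to 104 CPM in mexAM and 43.0 to 88.1 CPM in BALF, mostly Cd22. Neutrophil markers summed to 340 to 812 CPM in mexAM and 142 to 168 CPM in BALF, of which Cxcr2 and S100a8 rose and the other 9 tested were not called; Ly6g had 0 counts in mexAM and 1 in BALF. Cxcr2, a chemokine receptor of neutrophils, had 160, 392 and 185 CPM in mexAM, against 6.28, 11.3 and 13.4 CPM in BALF (4.60 ± 0.47, adjusted p = 5.36e-06). S100a8, a calcium-binding protein of neutrophils and monocytes, had 352, 398 and 92.9 CPM in mexAM, against 47.5, 59.9 and 51.0 CPM in BALF (2.42 ± 0.50, adjusted p = 0.00316). S100a9, the partner of S100a8, did not rise with it, at 14.6, 7.95 and 5.91 CPM in mexAM and 19.5, 29.4 and 16.1 CPM in BALF. Of the remaining marker lists, fibroblast and smooth muscle markers summed to 199 to 598 CPM in mexAM and 76.8 to 99.4 CPM in BALF, which was mainly Gsn, the actin-severing gelsolin (249, 195 and 594 CPM in mexAM, 94.9, 71.2 and 97.6 CPM in BALF). The part of other cells in the calls was not tested.

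The cultures varied among themselves more than the lavages in a minority of genes. Over 3759 genes of at least 50 CPM, the median log2 range among the 3 libraries was 0.45 in mexAM and 0.44 in BALF, but 59 genes had a range of over 4-fold in mexAM and 25 in BALF. Genes that low oxygen is known to induce varied in this way, as examples chosen after their values were seen. Egln3, a prolyl hydroxylase that marks hypoxia-inducible factors, had 93.8, 35.8 and 359 CPM in mexAM, against 2.09, 1.13 and 0 CPM in BALF (7.05 ± 1.13, adjusted p = 0.000604). Slc2a1, the glucose transporter GLUT1, had 105, 37.3 and 326 CPM in mexAM and 145, 138 and 152 CPM in BALF and was not called. Hilpda, a lipid droplet protein, had 383, 99.9 and 549 CPM in mexAM and 140, 357 and 278 CPM in BALF and was not called. Bnip3, a mitophagy receptor, had 56.5, 19.4 and 169 CPM in mexAM and 29.3, 29.4 and 12.5 CPM in BALF; it was called (1.79 ± 0.61) with overlapping groups and lost the call in 11 of 18 alternatives. In all 4 genes the culture of mouse 4 was the highest and that of mouse 2 the lowest. Vcam1, an adhesion molecule, had 97.2, 118 and 3.94 CPM in mexAM and 9.07, 10.2 and 4.48 CPM in BALF, with the culture of mouse 4 at the level of the lavages.

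The 4 libraries of alveolar macrophages cultured from pooled lavages took no part in the calls and share no library with the mexAM. Their levels are given for some of the leading genes. Cultures of a pool at 2 passages are not independent. Vipr2 was at 45.0 to 125 CPM, Cyp4a12b at 374 to 762 CPM, Spag11b at 1179 to 2112 CPM and Ffar2 at 191 to 308 CPM in the pool cultures, where no BALF library exceeded 71.2 CPM for any of them. Among lost genes, Hmox1 was at 235 to 415 CPM, Slc7a11 at 41.6 to 135 CPM, Hspa1b at 1.93 to 6.40 CPM and Cd2 at 0.640 to 8.75 CPM, below the lowest BALF values of 7406, 1064, 165 and 180 CPM. Csn2 differed between pools, at 803 and 918 CPM in pool 1 and 41.2 and 31.6 CPM in pool 2. So did Bmp8a, at 46.3 and 14.1 CPM in pool 1 and 2.50 and 1.01 CPM in pool 2, near its BALF values of 0, 1.13 and 0 CPM. Necab1 ranged from 5.37 to 93.5 CPM in the pool cultures.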

How the data were processed

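Per the labels' protocols, RNA came from RNeasy Micro columns, 150 ng entered QuantSeq 3′ FWD libraries with the UMI module and 15 cycles of PCR, and reads of 65 bp were made on a HiSeq4000. The authors deposited 1 file of raw counts per gene for each library. The builds GRCm 38 and mm 10 come from the submitters' processing notes; no source used here names the aligner, counter or annotation release, or says whether UMIs were collapsed. Gene names came from a GENCODE annotation, which named 47224 of 47643 IDs. Lines without a gene were left out of totals. Counts of mexAM, BALF, BMDM and PLF (12 libraries) passed through filterByExpr and TMM scaling and were fitted with edgeR 4.0.16 in R 4.3.3 (robust quasi-likelihood, limma 3.58.1), with adjustment over 10011 genes at 0.05. Only mexAM against BALF was taken from that fit, and the standard error is the fold change divided by the root of F. DESeq2 1.42.0 served as an alternative. Python 3.11.15, pandas 2.3.3, numpy 2.4.6, scipy 1.17.1 and matplotlib 3.10.9 did the rest. The scripts were tested on simulated data. Named genes were the 15 largest folds in each direction whose higher group averaged 50 CPM or more, and the 10 largest differences in CPM. Both sets were taken among called genes without overlap of the groups. Up to 4 called members of each of 50 lists with at least 10 CPM were added. All other genes, among them C5ar1, Slc40a1, Sema3e, Plxna1, Zeb2, Epas1, Klf4, Serpinb1a and the neighbours of chromosomes 1, 5, 6 and 17, were chosen after their values were seen. Comparison, lists and naming rule were chosen with earlier results of these data known. A floor of 3 counts over the group bounds folds against 0, and counting intervals are exact at 95%. Promoters are from a RefSeq table of GRCm38.p6. The mouse numbers pair the samples, since the labels give them as the same animals; same-numbered deviations correlated at -0.118, -0.031 and 0.0102. Replicate libraries differed by more than sampling noise (chi-square per degree of freedom 7.08 to 13.1).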

Additional observations from a re-analysis of the deposited data

How the results depend on the processing

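Under 18 alternatives the direction of at least 99.8% of called genes held, and no gene was called in the opposite direction. The counts fell when BALF was 1 library: 1318 calls (582 higher, 736 lower) with mouse 1 alone, 1394 (636, 758) with mouse 2 alone and 1210 (504, 706) with mouse 4 alone, where fewer samples enter. Leaving out 1 library gave 2288 to 2738 calls, 1110 to 1356 higher and 1178 to 1382 lower. Other settings gave 1251 higher genes (the 6 libraries alone) to 2235 (library totals) and 1082 lower genes (library totals) to 1625 (no filter), with 1396 and 1491 by DESeq2. With mouse number as a replicate block for the pairing, 2833 genes were called (1426 higher, 1407 lower). Genes detected at equal depth differed by -213 with 1 count and by 354 with 5 counts (mexAM minus BALF); leaving out 1 library gave -262 to -160. Of 201 named genes, 119 were called in every alternative, and of 3610 values 268 were no longer called, 162 of them with 1 BALF library. The only named gene whose fold change turned sign was Odc1, 0.37 with BALF of mouse 4 alone; the cause was not tested. Genes under 1 CPM were called in 3.23% of cases, and 133 tested genes had no count in any of the 6 libraries.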

Other observations

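Surface receptors of myeloid cells changed one by one. The counts of this section stand beside 15.2% higher and 14.8% lower over all genes tested. Of 34 paired immunoglobulin-like receptors and adaptors, 7 rose and 6 fell (median 0.06), and 4 rose without BALF of mouse 1 or mexAM of mouse 2. Cd300lf, an inhibitory receptor, had 542, 334 and 362 CPM in mexAM, against 62.8, 64.4 and 114 CPM in BALF (2.36 ± 0.34), and Cd300lb, an activating relative, had 2.33, 7.95 and 5.12 CPM in mexAM, against 37.7, 28.2 and 60.0 CPM in BALF (-3.00 ± 0.36, adjusted p = 8.11e-06). Neither gene overlapped between the groups. Of 15 tetraspanins, 5 rose and 3 fell (median -0.27). Cd63, found in late endosomes, had 1535, 1198 and 525 CPM in mexAM, against 274, 342 and 309 CPM in BALF (1.82 ± 0.32). Glycosyltransferases split 11 higher to 9 lower of 53, with Chst15, which sulfates chondroitin, at 116, 98.9 and 123 CPM in mexAM and 12.6, 19.2 and 23.3 CPM in BALF (2.64 ± 0.24, adjusted p = 3.85e-07). Among dendritic cell and monocyte markers 1 rose and 3 fell of 11; Fcgr4, an Fc receptor, had 233, 244 and 311 CPM in mexAM, against 57.2, 49.7 and 38.5 CPM in BALF (2.43 ± 0.26), while Ccr7 had no count in mexAM and was at least 7.91-fold lower.

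Signalling lists moved both ways, as did all genes tested (15.2% higher, 14.8% lower). Of 35 genes of cyclic nucleotide signalling, 9 rose and 3 fell (median 0.01), with 5 higher without BALF of mouse 4 and 0 lower without that lavage or without mexAM of mouse 1 or mouse 4. Pde3b, a phosphodiesterase, had 349, 409 and 491 CPM in mexAM, against 115, 129 and 61.8 CPM in BALF (2.03 ± 0.27). Among 29 growth factors and their receptors 6 rose and 6 fell (median 0.00). Osm, a cytokine, had 21.0, 20.9 and 26.0 CPM in mexAM, against 91.4, 140 and 88.6 CPM in BALF (-2.22 ± 0.38). Wnt and Notch genes rose in 3 and fell in 7 of 23 cases, with 1 higher without BALF of mouse 1 and 4 lower without BALF of mouse 2 or mexAM of mouse 4; Notch1 had 1.75, 6.95 and 3.94 CPM in mexAM, against 15.3, 11.3 and 41.2 CPM in BALF (-2.39 ± 0.50). Of 17 dual specificity phosphatases 3 rose and 2 fell: Dusp9 had 26.2, 25.8 and 17.7 CPM in mexAM, against 1.40, 2.26 and 2.69 CPM in BALF (3.45 ± 0.47), and Dusp1 changed by -1.96 ± 0.36. Synaptic and neuropeptide genes rose in 4 and fell in 0 of 9 cases, and beside Slc32a1 and Necab1 these were Npy, which was 23.0 times higher by counts (exact 95% interval 3.91 to 930), and Penk, the enkephalin precursor, with 11.6, 10.9 and 29.1 CPM in mexAM against 2.09, 2.26 and 2.69 CPM in BALF (2.87 ± 0.57).

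Calls are given as counts for the lists of translation initiation factors (1 higher and 2 lower of 52), mitochondrial protein import (3 and 1 of 21), polyamine, arginine and proline metabolism (2 and 3 of 20), purine and pyrimidine synthesis (4 and 3 of 24) and glutathione transferases (2 and 2 of 9). In the last list Mgst3 had 5.82, 12.9 and 8.66 CPM in mexAM, against 62.1, 39.5 and 56.4 CPM in BALF (-2.52 ± 0.30). Serine and one-carbon genes rose in 3 and fell in 2 of 13 cases, and amino acid transporters in 3 and 5 of 20. Of 31 genes of the BCL2 family and caspases 7 rose and 4 fell, with 3 higher without BALF of mouse 1 and 4 without BALF of mouse 4 or mexAM of mouse 4; the inflammatory caspases Casp1 and Casp4 changed by -1.32 ± 0.20 and -1.25 ± 0.37. Among markers of endothelium 1 rose and 1 fell of 4, and among those of eosinophils, basophils and mast cells 0 rose and 1 fell of 9. Alveolar epithelial markers rose in 1 (Cdh1) and fell in 3 of 8 cases, with a median change of 0.74. Their sums were 180 to 541 CPM in mexAM and 315 to 381 CPM in BALF.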
